A study of Caenorhabditis elegans with 2 samples.

Results

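The weaker peaks described here are 2895 of the 29980 nuclear peaks in the pooled relaxed list of a chromatin immunoprecipitation and sequencing (ChIP-seq) study in the nematode Caenorhabditis elegans, whose tagged protein, M03D4.4, is predicted to be a C2H2 zinc finger factor. They were chosen by measured values. The pooled peaks were sorted by the authors' signal, those touching a peak of the authors' IDR list were dropped, and the first 3000 of the rest were kept where at least 50% of the peak's width was overlapped by a peak in both replicate lists. IDR, the irreproducible discovery rate, compares the ranks of peaks between replicates. The authors' IDR list holds 1423 nuclear peaks, which were also the top 1423 nuclear peaks of the pooled list by signal. Signal, rank and match were used in the choice and are given below as description, with no test. Locations and genes were not used.

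The chromatin came from whole mixed-stage embryos, pooled male and female, of strain OP696 (unc-119(tm4063) III; wgIs696), taken 2 h after egg bleaching. The transgene wgIs696 carries M03D4.4 with a C-terminal GFP-FLAG tag, and an anti-GFP antibody was used. The design had 1 group of 2 biological replicates, and peaks were called against a control. The files give no read counts, so depth is unknown. No list from an untagged strain or for another protein was analysed here, so binding by M03D4.4 and chromatin recovered with any tagged protein cannot be told apart.

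C2H2 zinc finger proteins form a large family of nuclear factors whose fingers read short DNA words, and their peaks in ChIP-seq tend to lie at promoters and enhancers. In C. elegans many genes are trans-spliced, so an annotated 5' end can lie downstream of the site where transcription starts. IDR weighs how far the ranks of peaks agree between replicates and says nothing of the function of peaks left out.

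Sequences of 5 weaker peaks show the kinds of site that the tier holds, each as the summit with 50 bases on either side on the + strand of WBcel235 (ce11), in lower case. Capitals mark the bases of an annotated tRNA gene in the tRNA example, and elsewhere matches on either strand to the 5 leading words of 7 bases described at the end. The first is the strongest weaker peak, at chrII:9057341-9057441 upstream of rpl-32, a ribosomal protein gene, and holds none of these words. The second lies at chrII:13157108-13157208 between the 5' ends of hpr-17, a DNA damage checkpoint clamp loader gene, and F32A11.1, and is the strongest promoter peak with a CGCGC word whose window holds no annotated UTR. The third, at chrII:10374999-10375099, is intergenic and holds a run of 22 G. The fourth, at chrV:19631113-19631213 between the 3' ends of dyf-19 and Y43F8C.5, holds a stretch of 38 bases that occurs 2 times in the window, in copies that overlap. The fifth, at chrIV:2801133-2801233, covers the tRNA gene WBGene00023182, which is on the minus strand.
rpl-32 promoter: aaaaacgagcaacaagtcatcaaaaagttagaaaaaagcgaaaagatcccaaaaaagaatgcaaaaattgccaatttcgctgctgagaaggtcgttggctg
hpr-17 and F32A11.1 promoter: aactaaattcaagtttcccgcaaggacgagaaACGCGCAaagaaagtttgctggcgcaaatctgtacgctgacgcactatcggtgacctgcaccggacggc
intergenic G run: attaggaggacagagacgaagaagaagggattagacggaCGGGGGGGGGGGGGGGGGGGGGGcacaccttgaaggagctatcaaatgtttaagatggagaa
dyf-19 and Y43F8C.5 3' ends: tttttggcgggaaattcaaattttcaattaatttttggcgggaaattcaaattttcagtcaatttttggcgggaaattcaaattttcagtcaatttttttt
WBGene00023182 tRNA gene: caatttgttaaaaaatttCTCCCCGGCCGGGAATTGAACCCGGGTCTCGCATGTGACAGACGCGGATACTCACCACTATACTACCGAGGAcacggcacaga

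In signal the tier continued directly from the IDR list. The nuclear IDR peaks were the top 1423 ranks of the pooled list, the weakest with a signal of 146.56, and the first weaker peak, at rank 1424 beside rpl-32, had a signal of 146.50. The last weaker peak, at rank 4517, had a signal of 94.3841, and the next peak outside the tier had 94.3809. Median signal was 110 in the weaker peaks and 205 in the IDR peaks. The authors' −log10 q-value ran from 0.807 to 2.31 in the weaker peaks, with a median of 1.26, and its lowest value among IDR peaks was 2.20.

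Of the first 3000 peaks outside the IDR list, 2957 were matched in replicate 1, 2938 in replicate 2 and 2895 in both, 96.5% of them. Matching fell to 87.8% in the next 3000 pooled peaks and to 8.6% in the 3000 lowest ranked. The least overlap of a member with its replicate peak was 50.7% of its width in replicate 1 and 50% in replicate 2, and the closest failed overlap was 49.8%. Each replicate list holds 30000 peaks. The widths of the nuclear ones sum to 12.8% and 12.6% of the nuclear genome, with any overlap counted again. A match says only that a replicate had a peak there at any rank.

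The 2 replicates ranked the weaker peaks differently. Signal of the matched peak had a lowest, median and highest value of 24.4, 59.1 and 111 in replicate 1, and of 22.9, 52.3 and 108 in replicate 2. Only 847 members (29.3%) ranked within 4517, the pooled rank of the last member, in both replicates, while 1752 (60.5%) did so in 1 replicate and 296 (10.2%) in neither. Of the IDR peaks, 66.8% ranked within their own number, 1423, in both replicates, 30.9% in 1 replicate and 2.39% in neither. The matched peak lay below rank 15000 in at least 1 replicate for 327 members (11.3%). Across the 2895 members the signals of the 2 replicates had a Spearman correlation of −0.34, over peaks that share a narrow range of pooled signal by choice. The match in position was required by the rule. The nuclear IDR peaks were the top 1423 by pooled signal, and how their number was set is not given in the sources used here. These values therefore only describe the choice.

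**Figure D1:**
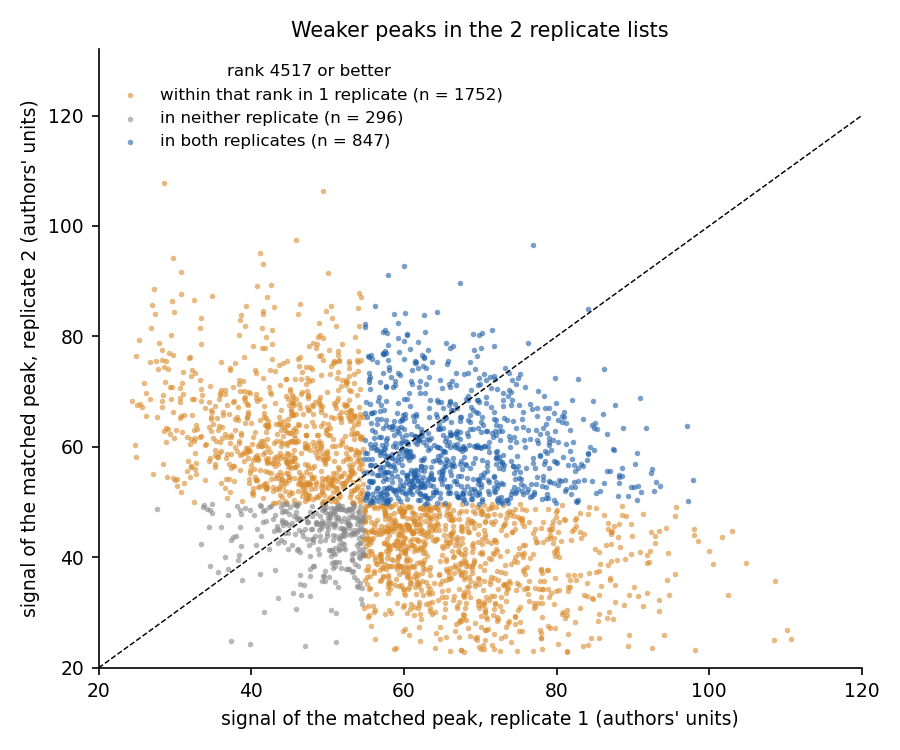
Signal of the matched peak in replicate 1 (x axis) and replicate 2 (y axis), in the authors' units, for the 2895 weaker peaks, coloured by whether it ranked within 4517 in both, 1 or neither replicate; the dashed line marks equal signal. Most peaks (1752) are within that rank in 1 replicate, and 847 are in both.

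Nearly all members (2893) were 430 bp wide, and 44 overlapped another member. The nearest IDR summit lay a median of 19030 bp away, and 616 members (21.3%) lay within 5000 bp of one. None lay within 20 kb of M03D4.4 itself, and the nearest summit, with a signal of 128, was 134595 bp from the gene.

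Promoters, from 1000 bp upstream to 500 bp downstream of a protein-coding 5' end, held the most weaker summits, 1037 or 35.8% (exact 95% interval 34.1 to 37.6), against 50.2% of IDR summits. Introns held 825 (28.5%), intergenic sequence 559 (19.3%), 3' ends with the 500 bp beyond them 217 (7.5%), exons other than the first 196 (6.8%) and first exons or 5' UTRs 61 (2.1%). The largest relative gain over the IDR list was in exons other than the first, from 1.05% to 6.8%, while those exons make up 16.8% of nuclear bases. Promoters make up 26.4% and introns 27.9%. The intron share was thus close to the share of bases, and the promoter share was still above it.

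Tiers were compared by Fisher's exact test, two-sided and adjusted over the 6 classes. Promoters were less frequent in the weaker peaks than in the IDR peaks (Fisher's exact test, adjusted p = 7.54e-19). Other exons (Fisher's exact test, adjusted p = 5.18e-19), introns (adjusted p = 0.000178) and first exons or 5' UTRs (adjusted p = 0.000241) were more frequent. The 3' ends rose from 5.41% (Fisher's exact test, adjusted p = 0.0122), a call that was lost in 4 alternatives. Intergenic shares were 19.3% and 19.8% (Fisher's exact test, adjusted p = 0.713). These tests cover counting error over peaks, which are not replicates. Restricted to the 847 members ranked within 4517 in both replicates, the intron difference no longer passed (Fisher's exact test, adjusted p = 0.141).

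The 105 peaks of the same signal range that missed the match showed no difference in location that passed the test (Fisher's exact test, lowest adjusted p = 0.575). Promoters held 28.6% of them, with an interval of 20.2 to 38.2, which includes the 35.8% of the members.

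**Figure D2:**
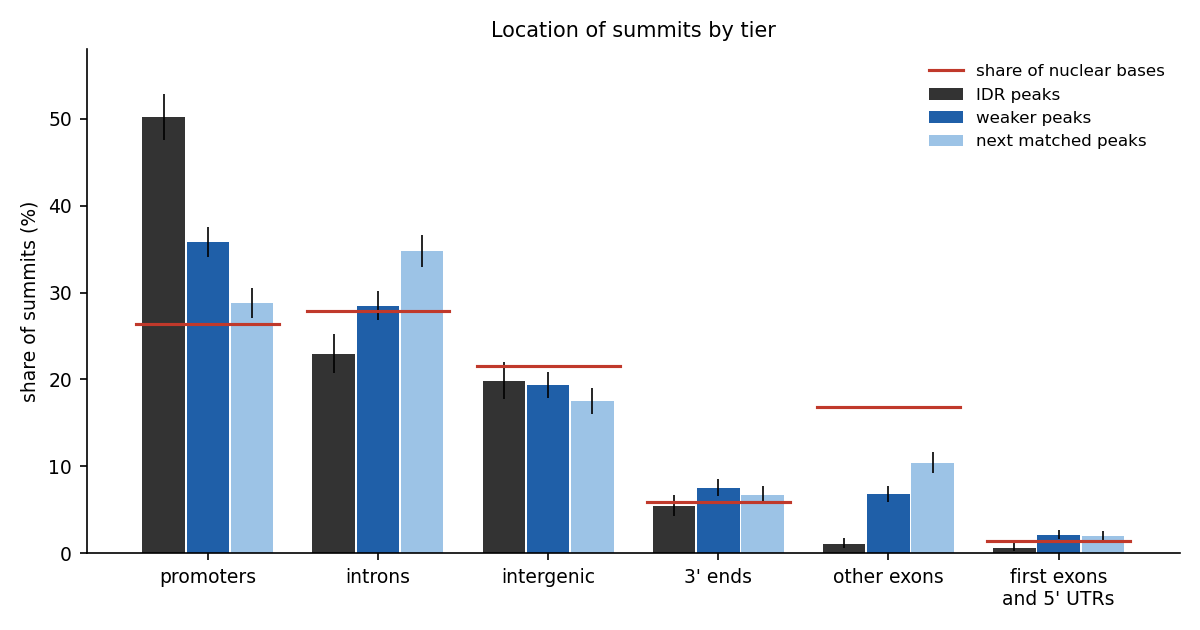
Share of summits (y axis, %) in each location class for IDR peaks, weaker peaks and the next matched peaks, with exact 95% intervals; red lines mark the share of nuclear bases. Promoters fall from 50.2% to 35.8% and then 28.8%, and other exons rise from 1.05% to 6.8% and 10.4%.

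Location shares are given here by rank, with no test between steps of the tier. Promoters held 39.0% of the members among the first 1000 ranked peaks, 34.7% among the second and 33.6% among the third 1000, then 28.8% of the 2634 matched peaks in the next 3000 and 25.8% of the lowest 3000. Other exons held 5.07%, 6.77%, 8.54%, 10.4% and 14.6% over the same steps. Against the next matched peaks, the weaker peaks had more promoters (Fisher's exact test, adjusted p = 1.43e-07), fewer introns (28.5% against 34.7%, adjusted p = 1.84e-06) and fewer other exons (adjusted p = 3.25e-06). The intron call was lost without replicate 1 (Fisher's exact test, adjusted p = 0.124) and in the first 1500 peaks (adjusted p = 0.0789).

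On the X chromosome lay 462 weaker peaks (16.0%), below its 17.7% share of nuclear bases, against 24.7% of IDR peaks (Fisher's exact test, adjusted p = 2.06e-11 over 8 classes of composition). Within the tier the X share fell from 18.8% to 16.1% and 12.8% over the 3 steps of 1000, and was 14.0% in the next matched peaks. Per Mb, chromosome I held the most weaker peaks (38.9), then III (37.4), II (33.2), X (26.1), IV (22.5) and V (20.6), whereas X held the most IDR peaks (19.8). The middle of 3 equal parts of each chromosome held 28.1% of weaker and 35.0% of IDR peaks (Fisher's exact test, adjusted p = 6.23e-06), though not beyond counting error for the 847 members ranked within 4517 in both replicates (adjusted p = 0.193).

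**Figure D3:**
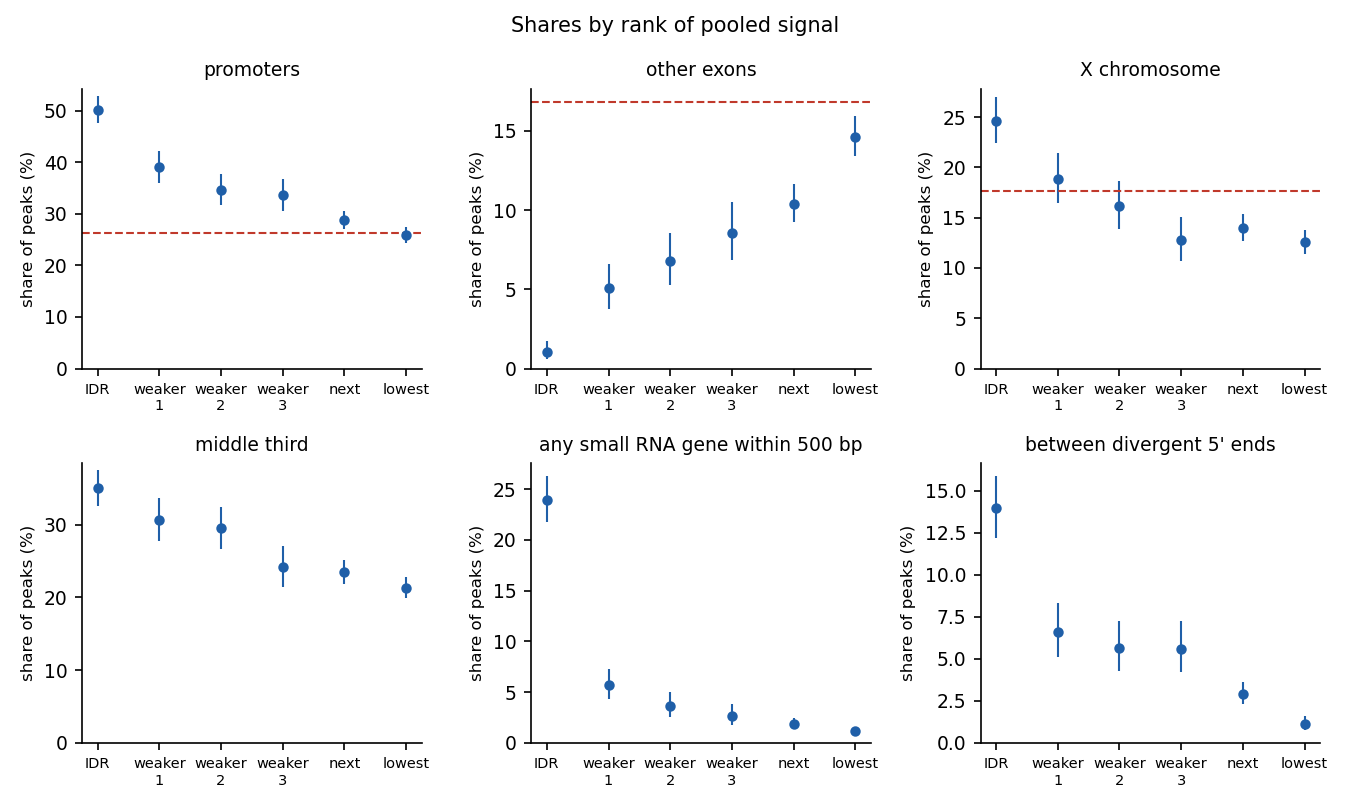
Share of peaks (y axis, %) in 6 classes, for IDR peaks, the weaker peaks in 3 steps of 1000 ranks, the next matched peaks and the lowest ranked peaks (x axis), with exact 95% intervals and, dashed, the share of nuclear bases where one applies. Small RNA genes lie near 24.0% of IDR peaks and 5.67%, 3.65% and 2.64% of the weaker steps.

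Small RNA genes were far less frequent beside the weaker peaks than beside the IDR peaks, and more frequent than beside the next matched peaks. A tRNA, rRNA, snRNA, snoRNA or miRNA gene lay within 500 bp of 116 weaker summits (4.01%) and of 24.0% of IDR summits (Fisher's exact test, adjusted p = 1.15e-82). In the next matched peaks the share was 1.86% (Fisher's exact test, adjusted p = 9.76e-06), and 0.683% for tRNA genes alone (adjusted p = 9.04e-05). For snoRNA and snRNA genes that second comparison did not pass. The shares that follow are those of weaker and IDR peaks. For tRNA genes alone the shares were 1.97% and 15.9% (Fisher's exact test, adjusted p = 9.43e-63), for snoRNA genes 1.04% and 5.27% (adjusted p = 7.69e-16), and for snRNA genes 0.207% and 1.26% (adjusted p = 3.28e-05). The miRNA genes had 0.864% and 1.62% (Fisher's exact test, adjusted p = 0.0307), a call lost in the first 1500 peaks (adjusted p = 0.136) and in the 847 members ranked within 4517 in both replicates (adjusted p = 0.197). Since tRNA genes have near-identical copies and the handling of reads that map to several places is not given in the sources used here, counts at single tRNA genes are uncertain.

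Of the promoter summits of the tier, 467 (45.0%) lay within 300 bp upstream of the 5' end. The nearest protein-coding 5' end was a median of 166 bp downstream of the summit, and 77.8% of the 1037 summits lay upstream of it, against 88.2% of the 714 in the IDR list. Summits inside the gene, within the 500 bp downstream of the 5' end, made up the rest. Summits upstream of a pair of divergent genes numbered 172 (5.94%), against 14.0% of IDR peaks (Fisher's exact test, adjusted p = 2.78e-17) and 2.89% of the next matched peaks (adjusted p = 2.82e-07). The second comparison was not past the threshold in the first 1500 peaks (Fisher's exact test, adjusted p = 0.0946).

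**Figure D4:**
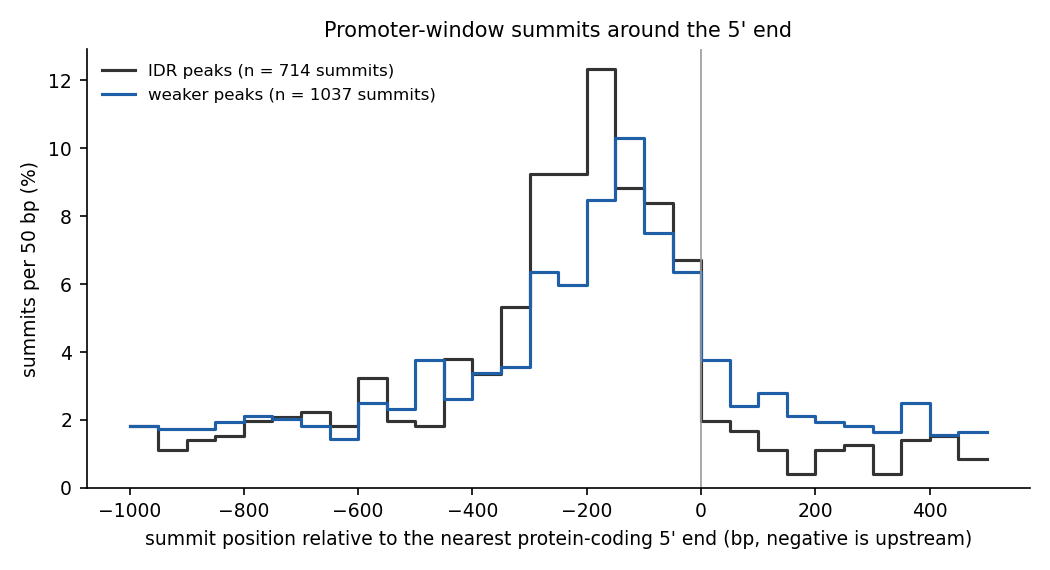
Share of promoter-window summits per 50 bp (y axis, %) by position relative to the nearest protein-coding 5' end (x axis, bp, negative is upstream) for 714 IDR and 1037 weaker summits. Both peak upstream of the 5' end, and 77.8% of weaker and 88.2% of IDR summits lie upstream.

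Genes were counted as targets if their promoter window held a summit. The IDR peaks had 936 protein-coding targets, 4.69% of the 19973, and the weaker peaks had 1252, or 6.27%. Of these, 1231 (98.3%) had no IDR peak, 6.47% of the 19037 genes without one, and 21 were shared with the 936 IDR targets. The rule dropped peaks touching an IDR peak, and its part in this split was not tested. Together the tiers reached 2167 genes, 10.8% of all. Among the genes that neither tier reached, 4.44% had one of the next matched peaks. The 847 members ranked within 4517 in both replicates reached 403 of the added genes, 2.12% of those without an IDR peak.

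Shared genes had a second, weaker summit in the same window. At cbp-1, the CBP/p300 acetyltransferase gene, the weaker summit lay 1 bp upstream of the 5' end with a signal of 145, and the IDR summit lay 884 bp upstream with a signal of 643. At hcp-3, the centromeric histone H3 gene, the weaker summit was 714 bp upstream with a signal of 117, and the IDR signal was 153. At unc-15, the paramyosin gene, the weaker signal was 94.4 and the IDR signal 170.

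The 25 named genes, taken in order of signal, had pooled values between 142 and 147. Among them were genes of ribosomes and nucleoli. At rpl-32 (II:9056497-9057085, minus strand) the summit lay 306 bp upstream, with 84.7 in replicate 1 and 64.0 in replicate 2 on the authors' signal scale. At rpl-7 (I:111038-112417) the summit was 339 bp upstream, with 35.7 and 58.2. At rpl-6 (III:7208447-7209789) it was 353 bp upstream, with 56.2 and 85.4. The 2 replicates differ in order among these 3 genes, and rpl-7 was low in replicate 1.

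The nucleolar methyltransferase gene fib-1 (fibrillarin, V:15000651-15002223) had its summit 115 bp upstream, with 67.3 in replicate 1 and 89.6 in replicate 2. The same summit lay 205 bp upstream of mut-15, a small RNA pathway gene. At lpd-7, a ribosome biogenesis gene, and at rpl-9, 1 summit served both genes, 255 and 264 bp upstream, with 85.6 and 52.1. A summit 149 bp upstream of farl-11 also lay 379 bp upstream of rpl-33, with 69.6 and 76.4.

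Further named genes came from many functions. The beta-tubulin gene tbb-1 had a summit 171 bp upstream, with 78.2 in replicate 1 and 63.4 in replicate 2. Argonaute gene alg-2, which acts in the microRNA pathway, had its summit 420 bp inside the gene, with 72.9 and 67.4. The SR splicing factor gene rsp-8 had its summit 583 bp upstream, with 84.4 and 60.0. The RNA export gene nxt-1 had one 30 bp inside the gene, with 79.7 and 66.1. Others were sqv-8, an enzyme of glycosaminoglycan synthesis, aat-3, an amino acid transporter, ztf-7, a zinc finger protein, and spat-2, with summits 729 bp upstream, 61 bp inside, 233 bp upstream and 578 bp upstream. Among the rest, coel-1 had the widest spread of replicates, with 98.5 in replicate 1 and 42.9 in replicate 2.

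Gene groups were described by the count of members without an IDR peak that gained a weaker one, beside the 6.47% of all such genes. For 11 of 40 lists the exact 95% interval of this share lay above that value, for 4 it lay below, and for 25 it held it. Those 11 lists had IDR shares from 9.8% (cell cycle genes) to 38.3% (cytosolic ribosomal protein genes), beside 4.69% of all protein-coding genes. Of their genes left over, the next matched peaks reached 0 of 18 in the proteasome list. In the other lists they reached 5.77% (histone genes) to 30.3% (cytosolic ribosomal protein genes), beside 4.44% of all genes left. Shares above that of all genes were thus also seen in the IDR list and, but for the proteasome list, in the next matched peaks. In the next matched peaks they rest on few genes, such as 3 of 52 histone and 3 of 35 spliceosome genes. No interval was computed for those shares. The lists were chosen with earlier results of these data known, and the counts carry no test. Leaving out a replicate means taking the first 3000 peaks of the other replicate alone, with no match, which reached 6.29% of all such genes without replicate 1 and 6.20% without replicate 2. Without replicate 1 the intervals of 10 lists lay above that share, without replicate 2 those of 11, and with the nearest gene only those of 7. These were not all the same lists. Wnt pathway and cell polarity genes were above only without replicate 1, and citric acid cycle enzyme and bZIP genes only without replicate 2. Endoplasmic reticulum stress genes were above only with the nearest gene. Lists that no longer lay above are named below.

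Genes of translation were among those with high shares. Cytosolic ribosomal protein genes had 31 of 81 members in the IDR list, and 17 of the other 50 (34%, interval 21.2 to 48.8) gained a weaker peak, through 16 peaks. The summits lay upstream of the 5' end in 17 of 17 genes, at a median of 299 bp. Over all added genes 81.3% lay upstream, with a median of 204 bp. Beside those above, rpl-28 had a pooled signal of 128 and rps-3 of 117. With each summit given only to its nearest gene the share fell to 12.7% (interval 5.65 to 23.5), beside 5.18% of all genes without an IDR peak under that rule. Translation factor genes had 13 of 42 members in the IDR list and gained 8 of the other 29 (27.6%, interval 12.7 to 47.2). They include eif-3.B and eif-3.G, subunits of initiation factor eIF3, with 136 and 129, and ife-2, a cap-binding protein gene, with 110. Aminoacyl-tRNA synthetase genes gained 2 of 31 (6.45%), mars-1 and nars-1, a share at the background.

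Proteasome subunit genes stood at 4 of 31 in the IDR list and gained 9 of the other 27 (33.3%, interval 16.5 to 54.0). Their summits lay 4 to 942 bp upstream. The regulatory particle genes rpt-6, rpn-5 and rpn-9 had 137, 123 and 117, and the core genes pbs-3 and pas-5 had 136 and 117. In both replicates rpn-5 was even, with 60.4 and 60.9, whereas rpt-6 had 85.0 in replicate 1 and 41.5 in replicate 2. The share was 18.5% without replicate 1 and 22.2% without replicate 2. Among the 847 members ranked within 4517 in both replicates, 7.41% of the 27 were reached, beside the 2.12% of all genes. Heat shock protein and chaperonin genes gained 8 of 44 (18.2%, interval 8.19 to 32.7; 13.6% without replicate 1, with an interval that holds the background), with cct-5, a chaperonin subunit gene, at 141. With each summit given only to its nearest gene, the heat shock share was 12% (interval 4.53 to 24.3), which holds the 5.18% of all genes. A single summit between the small heat shock protein genes hsp-16.2 and hsp-16.41 had 128.

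Mitochondrial functions were reached at several levels. Oxidative phosphorylation genes gained 10 of 37 (27.0%, interval 13.8 to 44.1). They came from several complexes, with nuo-1 of complex I at 97.3, sdha-1 of complex II at 103, isp-1 and ucr-1 of complex III at 135 and 109, and atp-2 and atp-5 of the ATP synthase at 122 and 136. The summits lay upstream in 10 of 10 genes, at a median of 279 bp. Giving each summit only to its nearest gene left 7.89%, with an interval of 1.66 to 21.4 that holds the 5.18% of all genes. The summit at nuo-1 also served rpl-36.A. Mitochondrial ribosomal protein genes gained 11 of 62 (17.7%, interval 9.2 to 29.5), with mrps-18B at 138 and mrps-35 at 133. Citric acid cycle enzyme genes gained 3 of 16 and vacuolar ATPase genes 4 of 18, with intervals that hold the background.

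Genes of RNA processing and chromatin formed a further group. Spliceosome and SR protein genes gained 11 of 46 (23.9%, interval 12.6 to 38.8; 13.0% without replicate 2, with an interval that holds the background), with snrp-3 at 137 and rsp-3 at 137. With each summit given only to its nearest gene, the spliceosome share was 11.8% (interval 4.44 to 23.9), which holds the 5.18% of all genes. Histone genes gained 12 of 64 (18.8%, interval 10.1 to 30.5) through 8 peaks, of which 4 served a pair of histone genes each. With either replicate alone 7 of the 64 were reached (10.9%), with an interval of 4.51 to 21.2 that holds the background. The nearest-gene rule left 10.1% (interval 4.18 to 19.8), which also holds the 5.18% of all genes. Most of these genes have near-identical copies, so their counts are uncertain. The variant histone genes htz-1, for H2A.Z, and his-72, for H3.3, had 116 and 120. Chromatin regulator genes gained 13 of 75 (17.3%, interval 9.57 to 27.8). They include nurf-1, of the NURF remodeller, with 141, let-418, a Mi-2 ATPase gene, with 134, met-1, a histone H3 lysine methyltransferase gene, with 136, and set-2, of the SET1 family, with 125. In replicate 1 met-1 had 88.9 and in replicate 2 31.4, the widest spread of these 4. Cell cycle genes gained 9 of 46 (19.6%, interval 9.36 to 33.9; 13.0% without replicate 1, with an interval that holds the background), among them cdc-14 at 139, the checkpoint gene bub-3 at 121 and the Aurora B kinase gene air-2 at 118. Under the nearest-gene rule the cell cycle share was 12.5% (interval 4.73 to 25.2), which holds the 5.18% of all genes. The E2F gene efl-1 had 140.

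Muscle structural and actomyosin genes gained 9 of 34 (26.5%, interval 12.9 to 44.4). They are pat-4, the integrin-linked kinase gene (135), lev-11 for tropomyosin (120), act-2 for actin (120), myo-3 for a body wall myosin heavy chain (120), mup-2 for troponin T (117), pat-3 for beta-integrin (115), mlc-1 and mlc-5 for myosin light chains (102 and 95.3) and ttn-1 for titin (95.1). The summits lay upstream in 9 of 9 genes, at a median of 389 bp, beside the 81.3% of all added genes. Of the 9 peaks, 4 ranked within 4517 in both replicates. In the IDR list the same group had 9 of 43.

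Among developmental regulators, homeobox genes gained 3 of 93 (3.23%), ceh-2, duxl-1 and ceh-22, and genes of the bHLH, T-box, GATA, forkhead and Sox families gained 5 of 87 (5.75%), both with intervals that hold 6.47%. The 5 are tbx-2 (138), hlh-1, the MyoD homologue (119), sox-2 (110), pha-4, the pharyngeal forkhead gene (103), and unc-130. At hlh-1 the replicates had 87.4 and 28.9, and at pha-4 29.1 and 63.3. Nuclear hormone receptor genes gained 5 of 268 (1.87%, interval 0.608 to 4.3), below the background, and 3.36% without replicate 1. The bZIP genes gained 4 of 24 (16.7%, interval 4.74 to 37.4), ces-2, jun-1, cebp-2 and zip-11, and the ztf zinc finger genes 3 of 23 (13.0%, interval 2.78 to 33.6), ztf-7, ztf-27 and ztf-11. Without replicate 2 the bZIP share was 29.2% and the homeobox share 1.08%.

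Signalling lists were short and their intervals wide, all holding the background. Wnt pathway genes gained 3 of 23 (13.0%), pry-1 (axin), wrm-1 (a beta-catenin) and mig-14, TGF-beta pathway genes 2 of 18 (11.1%), daf-1 and sma-9, EGF and Ras pathway genes 1 of 18 (5.56%), lin-10, and insulin pathway genes 1 of 48 (2.08%), ins-39. Of 22 Notch pathway genes 0 were reached, with an interval up to 15.4%, but 13.6% were reached without replicate 1 and 9.09% without replicate 2. Without replicate 1 the Wnt share was 21.7%. Cell polarity genes gained 3 of 15 (20%, interval 4.33 to 48.1), lgl-1, nmy-2 and chin-1. Argonaute and small RNA pathway genes gained 7 of 48 (14.6%, interval 6.07 to 27.8), alg-1 at 126 among them, and 8.33% without replicate 1. Of the maternal RNA-binding protein genes, 6 of 37 were in the IDR list and ccf-1 alone of the other 31 was added, at 98.9.

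Several large families with sensory, protein-degrading or detoxifying roles lay below the background. Chemoreceptor family genes gained 3 of 1301 (0.231%, interval 0.0476 to 0.672; 0.692% without replicate 1 and 0.461% without replicate 2), srh-33, srg-45 and srw-79, with summits 765, 723 and 741 bp upstream. Detoxification enzyme genes gained 1 of 184 (0.543%; 0 without replicate 1), and F-box and BTB-MATH genes 11 of 406 (2.71%, interval 1.36 to 4.8). C-type lectin genes gained 8 of 238 (3.36%), with an interval that just holds 6.47%, and lay below the background with either replicate alone (2.94% and 2.52%). Neuropeptide, potassium channel, presynaptic and collagen genes gained 4, 3, 3 and 10 genes, all with intervals holding the background.

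**Figure D5:**
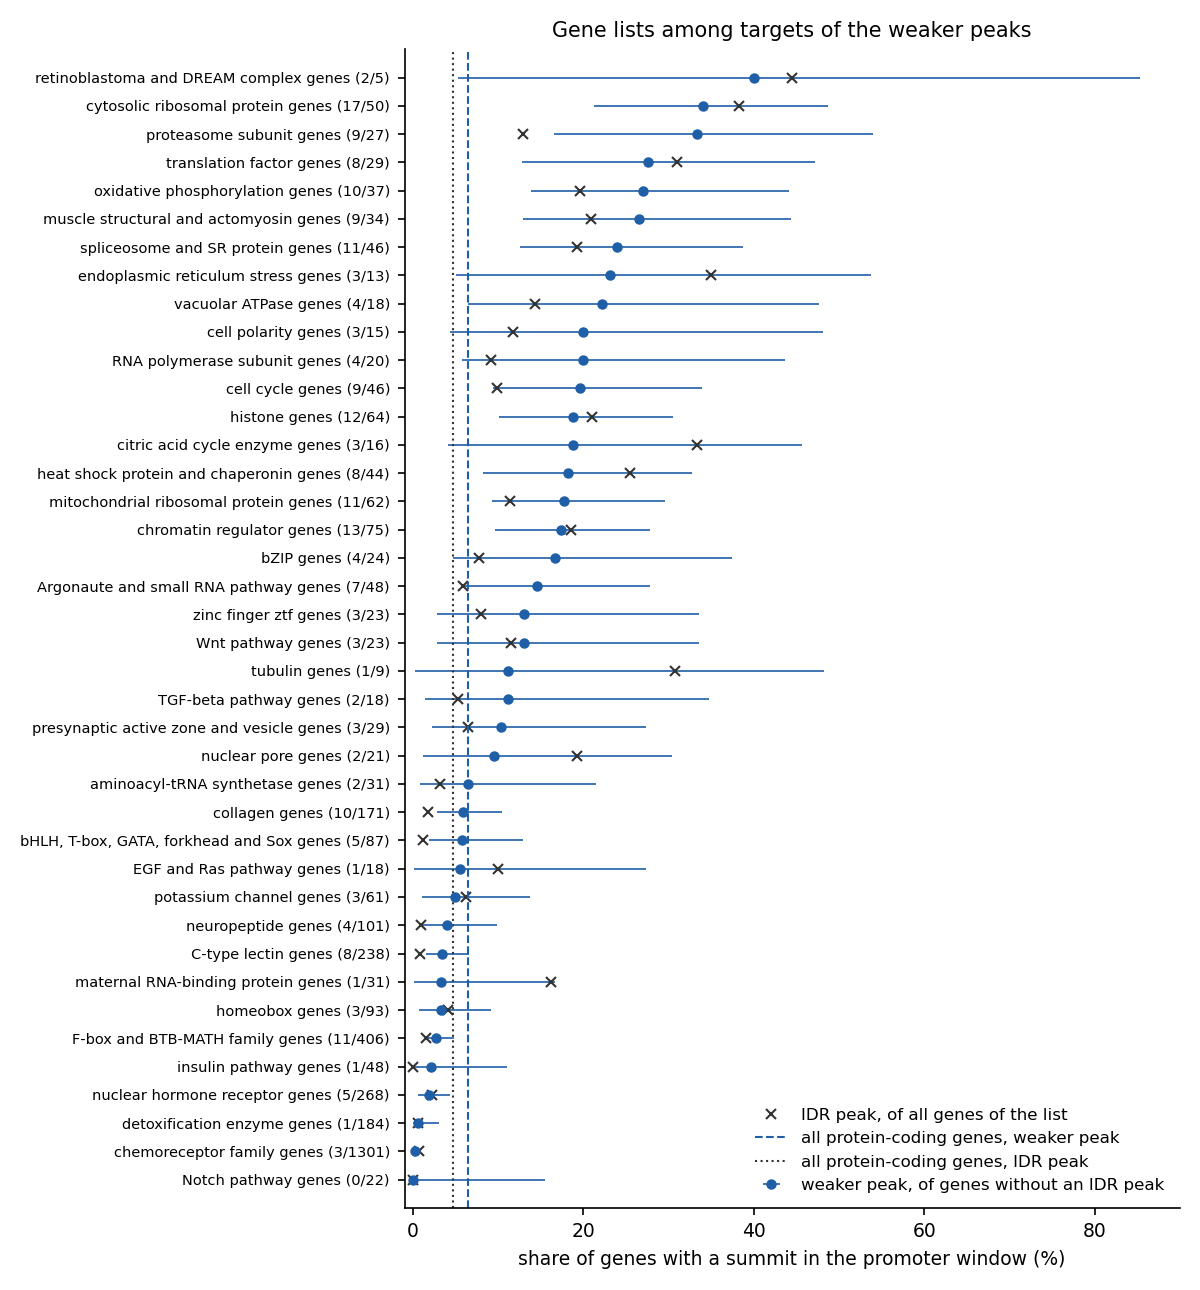
Share of genes (x axis, %) with a summit in the promoter window, for 40 gene lists. Circles with exact 95% intervals give weaker peaks among genes without an IDR peak (counts in the labels), crosses give IDR peaks among all genes of the list, and lines mark 6.47% and 4.69% of all protein-coding genes; cytosolic ribosomal protein genes stand at 34% and chemoreceptor family genes at 0.231%.

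Among all 44816 nuclear genes without an IDR peak, 5.06% had a weaker peak in the same window. That set includes 15262 piRNA genes, of which only 0.891% had one, whereas protein-coding genes alone stood at 6.47%. Of tRNA genes 260 of 612 were in the IDR list, and 71 of the other 352 (20.2%, interval 16.1 to 24.7) were added, through 57 peaks. At the tRNA gene WBGene00014299 (III:3389537-3389609) the summit lay 1 bp inside the gene, with 49.5 in replicate 1 and 106 in replicate 2. At WBGene00023182, whose sequence is printed above, the replicates had 70.7 and 62.9. The snoRNA genes added 41 of 261 (15.7%, interval 11.5 to 20.7) and the miRNA genes 27 of 227 (11.9%, interval 7.99 to 16.8). Several of the snoRNA targets, R151.11 and R151.12 among them, shared the summit of a ribosomal protein gene, here rpl-6.

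At the neuronal microRNA gene cel-mir-124 the summit lay 357 bp downstream of the 5' end, with 78.3 in replicate 1 and 34.2 in replicate 2. A single summit 377 bp upstream of cel-mir-229 also served cel-mir-64 and cel-mir-65, with 87.5 and 59.4. The snRNA genes added 7 of 113 (6.19%), lincRNA genes 18 of 188 (9.57%), pseudogenes 29 of 2117 (1.37%), piRNA genes 136 of 15262 (0.891%) and rRNA genes none of 20. Genes annotated as ncRNA added 704 of 7142 (9.86%), the largest count of these RNA classes and a share near that of lincRNA genes. These 704 genes came through 495 peaks, so some shared a summit.

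Intron peaks lay in long genes. The genes around the 825 intron summits had a median length of 9.72 kb, against 2.03 kb for all protein-coding genes, and a longer gene has more intron bases. Anywhere between their ends, 1201 of the 19973 protein-coding genes held a weaker summit and 420 an IDR summit. Of the 1201, 57 held 3 or more weaker summits. Those with 5 or more, named after their values were seen, were hmr-1 (E-cadherin) and mnk-1 (a kinase of translation factors) with 7 each, vab-10 (a spectraplakin) with 6, and cdc-25.2, tln-1 (talin) and tol-1 (a Toll receptor) with 5 each. Their lengths ran from 12.6 kb (mnk-1) to 58.9 kb (hmr-1), and no rate per base was computed. Of these, vab-10, tln-1 and tol-1 held no IDR summit, and cdc-25.2 held 5.

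Base content around the weaker summits was G and C rich. The window of 50 bases on either side of the summit averaged 45.0% G and C (SD 9.08 over 2895 peaks), between the IDR peaks (49.9%) and the next matched peaks (42.6%), with 37.5% in the flank from over 200 to 250 bp away. Words of 7 bases were counted on both strands in the 2779 members with no small RNA gene near. Among words in at least 2% of windows, the leading 5 were ranked by their count over that in the flanks. Their low flank shares are therefore part of the choice, and enrichment was not tested. The word CCCCCCC lay in 3.67% of windows, in 0.576% of flanks, in 4.62% of IDR windows and in 0.411% of windows of the same length centred 200 bp upstream of all 19973 protein-coding 5' ends. The word CCCCCCG, which overlaps it, lay in 2.16% and 0.36% of windows and flanks. In the tier CGCGCAC lay in 2.2% and GCGCGCA in 2.16%, against 5.64% and 6.1% of IDR windows, and ACGCGCA lay in 2.3%, against 4.81%. These last 3 words overlap one another. All are matches of letters, not sites.

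The C runs and the CGCGC words were also counted by location, with no test. A run of at least 10 G or C lay in 82 members (2.83%, interval 2.26 to 3.5), in 2.81% of IDR peaks and in 1.52% of the next matched peaks. Of the 82, 30 were intergenic, 25 intronic and 19 in promoters, and 29 lay on X. Any of the 3 CGCGC words lay in 151 members (5.22%), against 10.7% of IDR and 2.81% of the next matched peaks. Of the 151, 90 were in promoters and 28 on X. The run of 22 G in the intergenic sequence and the capitals upstream of hpr-17 printed above are examples of each.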

How the data were processed

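ChIP-seq peak lists of 2 biological replicates, 1 group per the labels, were used as deposited. Per the file headers, the relaxed lists of each replicate and of the pool were called permissively against a control, and the IDR list derives from them. Each relaxed list holds 30000 peaks. Not given in the sources used here are the aligner, how peaks were called, the cut on IDR and how signal was scaled. The signal and the −log10 q-value of each peak are the authors' deposited values, used to rank and describe peaks. Summits are the authors' deposited offsets. Depth is unknown.

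The ce11 lists were compared with Ensembl release 115 on WBcel235, and no peak lay past a chromosome end. Summits were classed in the order promoter (1000 bp upstream to 500 bp downstream of a protein-coding 5' end), 5' UTR or first exon, then 3' UTR, then any other exon, then intron, then the 500 bp downstream of a gene, then intergenic. As 3' ends, 3' UTRs were joined with that downstream stretch. Tiers were compared by Fisher's exact test, two-sided, with Benjamini-Hochberg adjustment over 6 location or 8 composition classes and a threshold of 0.05. Intervals are exact Clopper-Pearson intervals at 95%. Tests and intervals cover counting error only.

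The members and the 40 gene lists, matched by gene name, were chosen with earlier results of these data known, and list patterns were corrected after counts had been seen. Composition classes, next matched peaks and the restriction to 847 members were added after seeing the data. Named genes are the 25 added protein-coding genes first in pooled signal (nearest 5' end, no small RNA gene within 500 bp) and up to 4 top genes of each list; further members of lists with few targets, the shared genes and the genes with many summits were named after their values were seen. The sequences are those of the strongest peak of a class off the chromosome barred from printing whose window holds no annotated UTR, read from the RefSeq assembly WBcel235. Alternatives were each replicate alone, the first 1500 or 6000 peaks, other matches, a distance of 1000 bp from IDR summits, the nearest 5' end only, a window starting 500 bp upstream, no small RNA gene near, and the ce10 lists. Steps were tested on simulated data. Scripts used SciPy 1.17.1, pandas 2.3.3, NumPy 2.4.6 and Matplotlib 3.10.9 under Python 3.11.15.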

Additional observations from a re-analysis of the deposited data

How the results depend on the processing

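Depth is unknown, and with 1 group no difference between conditions can be drawn. No paired analysis was possible because the design has 1 group. Comparisons are given as odds ratios, weaker peaks against the named tier. No called value changed direction. Of the values for the main comparisons and counts, 291 kept their call, 16 lost it, 10 gained it and 9 counts moved by over 1.5 times. First exons against unmatched peaks in the first 1500 had no value, since 1 share was 0. Of the list and small RNA shares, 415 stayed within the reported interval and 64 did not, 27 of these in the members ranked within 4517 in both replicates and 12 in the first 1500 peaks. Heat shock, histone and cell cycle genes without replicate 1, and histone and spliceosome genes without replicate 2, no longer had an interval above the share of all genes. With the nearest 5' end only, the same held for heat shock, oxidative phosphorylation, spliceosome, histone and cell cycle genes. The cause of the other changes was not tested, except that counts follow the number of peaks taken.

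In the first 1500 peaks there were 1472 weaker peaks, 705 genes with one and 695 added genes, in the first 6000 there were 5529, 2062 and 2022, and the members ranked within 4517 in both replicates, an alternative chosen after seeing the data, gave 847, 410 and 403. Against IDR peaks, 3' ends no longer passed in the first 1500 (1.26), with the 500 bp window (1.27), in the 847 members (1.00) or with 1 replicate left out (1.30 without replicate 1, 1.40 without replicate 2, of which only the first did not pass). Introns (1.19) and the middle part of chromosomes (0.879) did not pass in the 847 members, nor did miRNA genes there (0.580) or in the first 1500 (0.584), and intergenic peaks passed with the 500 bp window (0.831).

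Against the next matched peaks, X passed in the first 1500 (1.46) and 6000 (1.28), with a match of 1 bp (1.18), over 1000 bp from IDR summits (1.23), in the 847 members (1.41) and with 1 replicate left out (1.06 to 1.22, the upper, without replicate 1, passing). Introns did not pass in the first 1500 (0.841) or with 1 replicate left out (0.854 to 0.900, the upper, without replicate 1, not passing), nor did divergent 5' ends in the first 1500 (1.33). Intergenic peaks passed in the 847 members (1.29), and snoRNA genes in the first 6000 (2.35) and with 1 replicate left out (0.896 to 2.01, the upper, without replicate 1, passing). The miRNA genes did not pass in the first 1500 (1.23), with a match of 1 bp (1.81), in the 847 members (2.78) or with 1 replicate left out (1.5 to 1.70).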
